A study of Caenorhabditis elegans with 14 samples.

Results

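The genes described here encode the nucleolar machinery that makes ribosomes in *C. elegans*, together with subunits of RNA polymerase I. They were taken by gene name from the deposited gene tables, as the nol, rpoa, rpac, rrp, pro, fib, ncl, nst, ruvb and utp genes plus dao-5, lpd-6, lpd-7 and rrbs-1. This choice gave 29 of the 46856 genes in the tables, all of them protein-coding. It went by name and used no measured value, but it was made with earlier results of these data known. Of these, 6 encode RNA polymerase I subunits, 3 the box C/D small nucleolar ribonucleoprotein (snoRNP), 7 small subunit processome proteins and other processing factors, 10 factors of large subunit assembly, 2 the RuvB-like AAA ATPases and 1 the nucleolar size regulator NCL-1.

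RNA was sequenced from whole hermaphrodite worms in 7 groups of 2 libraries each (14 libraries in all). The study gives the stage as L4 to young adult in its results and as young adult to gravid in its methods. Every group carried rrf-3(pk1426), which makes worms hypersensitive to RNAi, so no group was wild type. The control group C carried that allele alone and was fed bacteria with the empty vector L4440. The group rIIS-C carried in addition daf-2(e1368), a moderate allele of the insulin/IGF-1 receptor gene that lowers insulin/IGF-1 signalling, and was fed the same empty vector. The groups daf-16i and skn-1i had the genotype of rIIS-C and were fed double-stranded RNA against daf-16 or skn-1 from the L1 larval stage on. All of these were kept at 20 °C. C (HS) and rIIS-C (HS) were the same genotypes on empty vector after a heat shock of 2 h at 33 °C, and hsf-1i (HS) was the daf-2 genotype on hsf-1 RNAi after that heat shock. DAF-16, SKN-1 and HSF-1 are the transcription factors that act when insulin/IGF-1 signalling is reduced, and the design asks which genes change with reduced signalling and with the loss of each factor.

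Ribosome synthesis starts in the nucleolus, where RNA polymerase I copies the ribosomal DNA into a long precursor. Box C/D snoRNPs methylate this precursor, the small subunit processome folds and cuts it, and a succession of assembly factors builds the large subunit before export. Growth signals, insulin/IGF-1 signalling among them, are known to act on this pathway, and small nucleoli with low fibrillarin are known from long-lived worms.

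Reads on exons numbered 4681170 in the shallowest library, rIIS-C replicate 1, and 22767301 in the deepest, C (HS) replicate 1. The share of those reads that crossed an exon junction put 12 libraries into 2 classes, 9.39 to 9.89% and 22.57 to 26.34%, with 1 library of every group in each class, while C (HS) lay between them at 14.3 and 16.73%. The labels name no batch, and the study's methods name more than one sequencer and read length without saying which library had which. Whether the classes mark these was not tested, and the class is used below as a technical split. The C (HS) libraries also stood apart in mapped share, by the sequencing details the authors give. For that reason they were left out of the fit of 12 libraries. The paper also reports some unhealthy, unmoving rrf-3 worms after heat shock, most of them taken out by hand. C (HS), skn-1i and hsf-1i (HS) also stood apart in composition, since their trimmed-mean scaling (TMM) factors were 0.6584 to 0.7794 against 1.1462 to 1.6303 in the other libraries. Ribosomal RNA took 0.18 to 2.05% of gene reads in 13 libraries and 9.8% in skn-1i replicate 2. Levels are given in CPM, exon reads divided by library size (in units of 1e+06 reads) and scaled with TMM factors over the 14 libraries. The targeted genes skn-1 (26.2 and 25.3 CPM in skn-1i against 153 and 102 in rIIS-C) and hsf-1 (13.6 and 13.9 CPM in hsf-1i (HS) against 34.2 and 42.0 in rIIS-C (HS)) were low where they were targeted. For daf-16 the groups were closer, with 51.7 and 40.7 CPM in daf-16i against 85.9 and 49.9 in rIIS-C.

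All 29 genes had enough reads to be tested in every comparison. Fold changes are log2 values with standard errors (SE) from edgeR's quasi-likelihood test, in which a gene was called at a Benjamini-Hochberg adjusted p under 0.05 over all genes tested. In bulk RNA from whole worms, fewer cells of a type and less RNA per cell cannot be told apart.

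The genes lay on chromosomes I (6 genes), II (8), III (3), IV (5) and V (7), with 0 on X, which carried 13.6% of the protein-coding genes in the tables. Their coding length ran from 360 bases in rpoa-12 to 7842 in utp-20, and the median was 1596 bases against 996 over all protein-coding genes. Per kilobase of coding length, fib-1, which encodes the rRNA methyltransferase fibrillarin, had the highest mean level in C, at 524 CPM per kilobase. Its snoRNP partners nol-56 and nol-58, the core proteins NOP56 and NOP58, followed at 273 and 230 CPM per kilobase. The lowest levels per kilobase in C were those of nol-6 (10.6), the polymerase I large subunit gene rpoa-1 (10.8) and nol-9 (11.6). So the snoRNP proteins stood well above the polymerase subunits, among which rpac-19 was highest at 144 CPM per kilobase.

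Across the 7 groups the ratio of the highest to the lowest group mean ran from 1.38 in ruvb-2 to 13.1 in rpac-19, whose product is a small subunit shared by RNA polymerases I and III. The next widest ranges were 8.02 in utp-20, 6.5 in nol-16 and 5.24 in rrp-1. The group with the highest mean was daf-16i for 10 genes, skn-1i for 8, C (HS) for 6 and C for 5, while the lowest mean was in hsf-1i (HS) for 9 genes, in skn-1i and rIIS-C for 7 each and in C (HS) for 6. The same knockdown, skn-1i, thus held the maximum of some genes and the minimum of others. The summed level of the 29 genes moved much less than single genes did, from 2610 CPM in hsf-1i (HS) to 3670 in daf-16i.

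**Figure D1:**
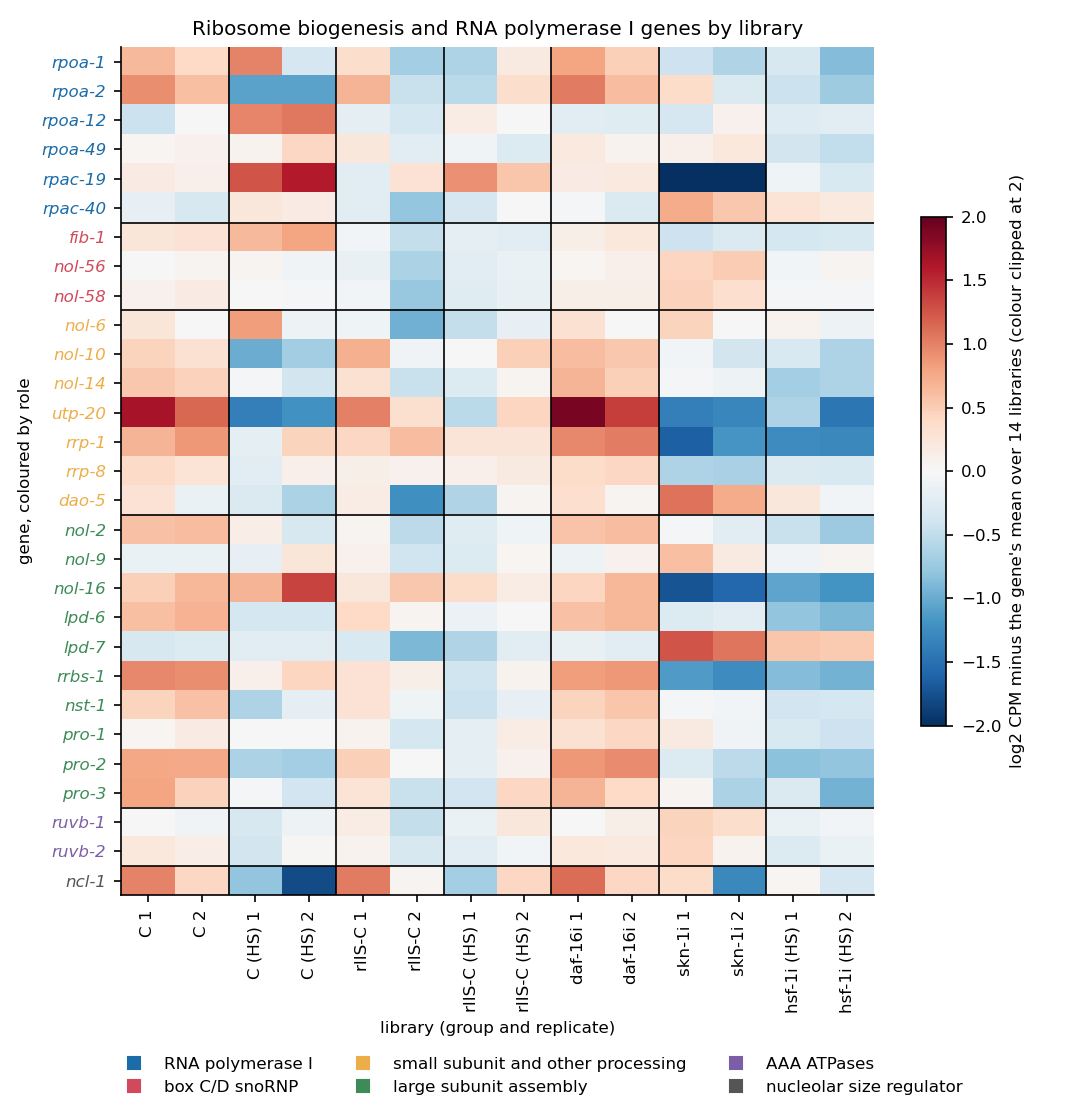
Heat map of the 29 genes (rows, grouped and coloured by role) in the 14 libraries (columns). Colour is log2 CPM minus the mean of that gene over all libraries, in log2 units clipped at 2. The blue block of rpac-19, nol-16, rrp-1 and utp-20 in skn-1i stands beside red cells of lpd-7 and dao-5 in the same libraries, and rIIS-C replicate 2 is paler or bluer than replicate 1 for most genes.

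Comparing rIIS-C with C shows the change with reduced insulin/IGF-1 signalling. The fold changes of the ribosome biogenesis genes in rIIS-C were small and lay on 1 side of 0, but few passed the test. The value was negative for 29 of 29 genes, with a median of -0.40 against 0.06 over all genes tested, although the value for nol-10 was -0.00. The call was reached by 2 genes, both lower and both in large subunit assembly, and by 0 that were higher. An unadjusted edgeR p under 0.05 was reached by 10 of the 29, beside 3443 of all 13892 genes tested. Over all genes tested 6.54% were called lower and 4.46% higher, so 2 of 29 is near the background. In 16 of the 29 both rIIS-C libraries lay below both C libraries, as did 24.4% of all genes tested.

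The large subunit factor rrbs-1 (RRS1 in yeast; chromosome V, 14423896 to 14425004, minus strand, 3 coding exons, WBcel235) had 146 and 144 CPM in C and 92.0 and 81.4 in rIIS-C. The libraries of the groups did not overlap, and rrbs-1 fell by 0.74 (SE 0.17, edgeR adjusted p = 0.0137). The rRNA cytosine methyltransferase gene nol-2 (chromosome II, 471470 to 475935, minus strand, 10 coding exons) had 170 and 173 CPM in C and 117 and 78.6 in rIIS-C. It fell by 0.81 (SE 0.19, edgeR adjusted p = 0.0185). Reads of nol-2 are uncertain, because 65.0% of its coding bases also lie in exons of W07E6.5 on the opposite strand and the library kit does not mark strand.

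In edgeR 0 of the 6 polymerase I and 0 of the 3 snoRNP genes were called, at an unadjusted p under 0.05 these were 0 and 3, and DESeq2 called 0 and 1. The large polymerase subunit gene rpoa-1 had 61.3 and 51.8 CPM in C and 50.2 and 24.5 in rIIS-C (log2 fold change -0.63, SE 0.33), and rpoa-2, which encodes the other large subunit, had 137 and 109 against 116 and 52.8 (-0.56, SE 0.37). For both, rIIS-C replicate 1 was close to the C libraries and replicate 2 was far below them. For fib-1 the levels were 545 and 564 CPM in C and 448 and 331 in rIIS-C (-0.51, SE 0.16), again with no overlap. The other snoRNP genes had values of -0.40 (nol-56) and -0.48 (nol-58). The gene ncl-1, whose product keeps nucleoli small and lowers fibrillarin in worms, had 79.7 and 53.3 CPM in C and 82.0 and 41.6 in rIIS-C, so the groups overlapped (-0.12, SE 0.50).

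The size of the difference rested on rIIS-C replicate 2. This library was lower than rIIS-C replicate 1 for 26 of the 29 genes, with a median difference of -0.48 against 0.03 over all genes, a gap that no other group showed at that size. Within the low junction class (replicate 1 of each group) 21 of 29 genes were lower in rIIS-C, with a median of -0.19, and within the high class (replicate 2 of each) 28 of 29 were, with a median of -0.63. The number of genes called lower was 13 without rIIS-C replicate 1 (7.04% of all genes in that fit), 1 without rIIS-C replicate 2 (6.05%), 0 without C replicate 1 (3.11%) and 0 without C replicate 2 (3.06%). It was 11 with a replicate block by junction class (10.1% of all genes) and 11 with the trend on exon length taken out of each library (9.83%). Fold change ran with coding length across the 29 genes (Spearman correlation -0.48, against -0.07 over all 13801 protein-coding genes tested). The 10 shortest had a median of -0.23 and the 10 longest a median of -0.56. With the length trend removed the correlation across the 29 was -0.47, and its cause was not tested.

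The levels of tissue markers moved between the groups too, and their part in this result was not tested. Of 12 germline markers edgeR called 0 (2 at an unadjusted p under 0.05), and their summed level was 1690 to 1740 CPM in C and 1400 to 2220 CPM in rIIS-C. Of 163 collagen and other cuticle genes 144 were tested, and 76 were called lower and 1 higher (75300 to 79100 CPM in C, 33800 to 53100 in rIIS-C, with 3 and 8 of the list at 0). Of 41 sperm markers 37 were tested, with 8 called lower (2620 to 3200 CPM in C, 1420 to 1880 in rIIS-C, 4 at 0 in each), and 6 of 9 body muscle markers were called lower (4930 to 5020 CPM in C, 2810 to 3210 in rIIS-C, none at 0). Of 9 early embryo markers 5 were tested and 4 called higher, at 73.6 to 97.6 CPM in rIIS-C against 21.2 to 23.9 in C, with 2 and 3 of the 9 at 0. Of 10 oocyte markers 2 were called higher, and 10 of 10 had a positive value (3040 to 5190 CPM in rIIS-C, 2740 to 2920 in C). Of 9 intestine markers 1 was called higher, and their sum in rIIS-C was 54400 CPM in replicate 1 and 19700 in replicate 2, against 30800 to 35300 in C.

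Knockdown of daf-16 in the daf-2 background asks how far these levels depend on DAF-16. Against rIIS-C the fold change in daf-16i was positive in 29 of 29 genes, 2 of which passed the test, with a median of 0.42 against -0.03 over all genes tested. This comparison uses the same rIIS-C libraries as the one above, so the 2 sets of values are given side by side and not as separate evidence. The genes called were again rrbs-1 and nol-2, both higher, beside 3.29% of all genes tested called higher and 2.78% called lower. In 18 of the 29 both daf-16i libraries lay above both rIIS-C libraries, against 21.4% of all genes tested.

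The level of nol-2 was 168 and 174 CPM in daf-16i against 117 and 78.6 in rIIS-C, and it rose by 0.80 (SE 0.19, edgeR adjusted p = 0.0284). For rrbs-1 it was 134 and 138 CPM against 92.0 and 81.4, and it rose by 0.65 (SE 0.17, edgeR adjusted p = 0.0404). In daf-16i nol-2 thus stood at the level of the C libraries (170 and 173 CPM), and rrbs-1 a little below it (146 and 144 CPM). The largest value that missed the call belonged to utp-20, a scaffold protein of the small subunit processome, which had 138 and 97.3 CPM in daf-16i against 74.8 and 46.5 in rIIS-C (0.97, SE 0.35). Among the genes followed throughout, fib-1 had 502 and 538 CPM (0.42, SE 0.16), rpoa-1 67.4 and 54.4 CPM (0.73, SE 0.33) and rpoa-2 149 and 111 CPM (0.64, SE 0.37) in daf-16i, and ncl-1 had 86.6 and 53.4 CPM (0.19, SE 0.50), none past the test.

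Here too the value depended on the rIIS-C libraries. In the low junction class 24 of 29 genes were higher in daf-16i, with a median of 0.20, and in the high class 28 of 29, with a median of 0.69. The number of genes called higher was 14 without rIIS-C replicate 1 (4.45% of all genes in that fit), and 0 without rIIS-C replicate 2 (3.7%), without daf-16i replicate 1 (1.66%) or without daf-16i replicate 2 (1.34%). With a replicate block by junction class it was 11 (6.08% of all genes). Fold change ran with coding length here too, with a Spearman correlation of 0.62 across the 29 genes and 0.12 over all protein-coding genes. The 10 shortest had a median of 0.30 and the 10 longest a median of 0.64, and with the length trend removed the correlation was 0.55. Of 12 germline markers 0 were called (4 at an unadjusted p under 0.05), at 1820 to 1830 CPM in daf-16i, and 37 of 144 cuticle genes tested were called higher and 1 lower (66500 to 70700 CPM in daf-16i, 4 at 0). Of 10 oocyte markers 0 were called, but 10 of 10 had a negative value and 8 an unadjusted p under 0.05 (2900 to 3000 CPM in daf-16i). Early embryo markers (2 of 5 tested called lower; 24.5 to 25.5 CPM, 1 of 9 at 0) and sperm markers (2 of 37 called higher and 36 positive; 2110 to 2740 CPM, 4 of 41 at 0) moved too, and the part of these markers was not tested.

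**Figure D2:**
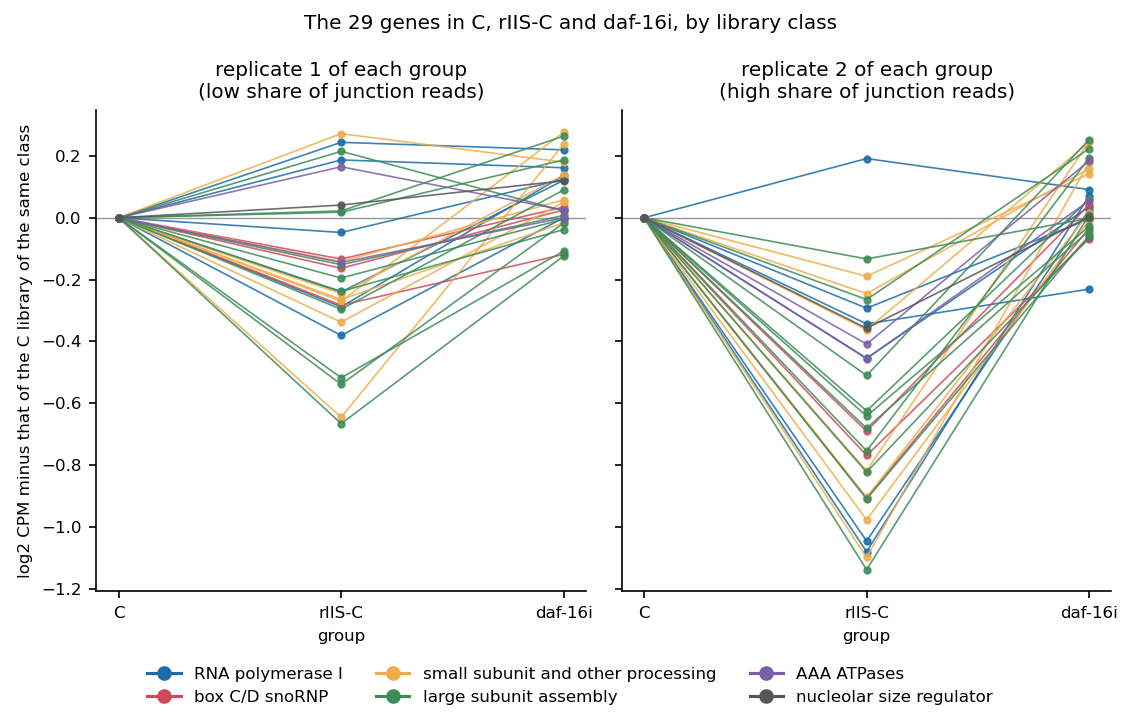
Log2 CPM of each of the 29 genes in C, rIIS-C and daf-16i minus that of the C library of the same junction class, with replicate 1 of each group at left and replicate 2 at right. Lines join the values of 1 gene and colours mark roles. Most lines dip at rIIS-C and come back near 0 in daf-16i, and the dip is deeper at right (median -0.63) than at left (median -0.19).

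With skn-1 knocked down in the daf-2 background, 16 of the 29 genes passed the test. Against rIIS-C, 8 rose and 8 fell, where 25.7% of all genes tested were called higher and 30.6% lower, so these shares are near the background. The median fold change was -0.10, against -0.13 over all genes. Both directions occurred within single role groups. Of the polymerase I subunits rpac-40 rose while rpac-19 fell. Among the large subunit assembly factors lpd-7 and nol-9 rose while nol-16, rrbs-1, pro-2 and lpd-6 fell. Within the snoRNP nol-56 and nol-58 rose, and fib-1 did not pass the test.

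The gene that rose most was lpd-7, the worm pescadillo gene, whose product is needed for large subunit rRNA maturation (chromosome III, 7573354 to 7575140, plus strand, 4 coding exons). It had 479 and 419 CPM in skn-1i against 161 and 107 in rIIS-C, above every library of the other groups. The rise was 1.75 (SE 0.20, edgeR adjusted p = 3.09e-05). The nucleolar phosphoprotein gene dao-5, the worm counterpart of NOLC1 (chromosome I, 10187772 to 10190880, minus strand, 7 coding exons), had 596 and 469 CPM against 310 and 120, and rose by 1.32 (SE 0.37, edgeR adjusted p = 0.0108). The subunit gene rpac-40, shared by polymerases I and III (chromosome V, 4199491 to 4203559, plus strand, 5 coding exons), had 75.2 and 65.2 CPM against 38.7 and 26.2, and rose by 1.13 (SE 0.20, edgeR adjusted p = 0.0006). Both skn-1i libraries of each of these genes were above both rIIS-C libraries, but rIIS-C replicate 2 was the lower of that pair each time. The snoRNP core gene nol-56 (chromosome V, 10350618 to 10352967, minus strand, 8 coding exons) had 525 and 552 CPM against 350 and 251, and rose by 0.84 (SE 0.17, edgeR adjusted p = 0.00124). The other rises were in nol-58 (0.76), nol-6 (0.74), nol-9 (0.56) and ruvb-1 (0.54).

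The deepest fall was that of rpac-19 (chromosome III, 9629350 to 9629879, minus strand, 3 coding exons). It had 10.3 and 13.2 CPM in skn-1i against 49 and 70.0 in rIIS-C, and fell by 2.33 (SE 0.22, edgeR adjusted p = 7.52e-06). No other group came near these levels, the lowest being 46.3 CPM in hsf-1i (HS). The large subunit factor nol-16 (chromosome I, 8255353 to 8256206, plus strand, 4 coding exons) had 15.8 and 17.6 CPM against 61.3 and 75.5, and fell by 2.03 (SE 0.18, edgeR adjusted p = 4.51e-06). For rrp-1, whose yeast counterpart acts in rRNA precursor processing (chromosome IV, 9980843 to 9982266, minus strand, 5 coding exons), the levels were 8.31 and 11.4 CPM against 34.5 and 39.9, and it fell by 1.90 (SE 0.17, edgeR adjusted p = 6.4e-06). These 3 genes also had their rIIS-C replicate 2 level above that of replicate 1, unlike the other 26. The longest gene, utp-20 (chromosome II, 6536384 to 6554671, plus strand, 27 coding exons), had 14.4 and 15 CPM against 74.8 and 46.5, and fell by 2.03 (SE 0.38, edgeR adjusted p = 0.000961). The other falls were in rrbs-1 (-1.39), rrp-8 (-0.73), pro-2 (-0.66) and lpd-6 (-0.48).

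**Figure D3:**
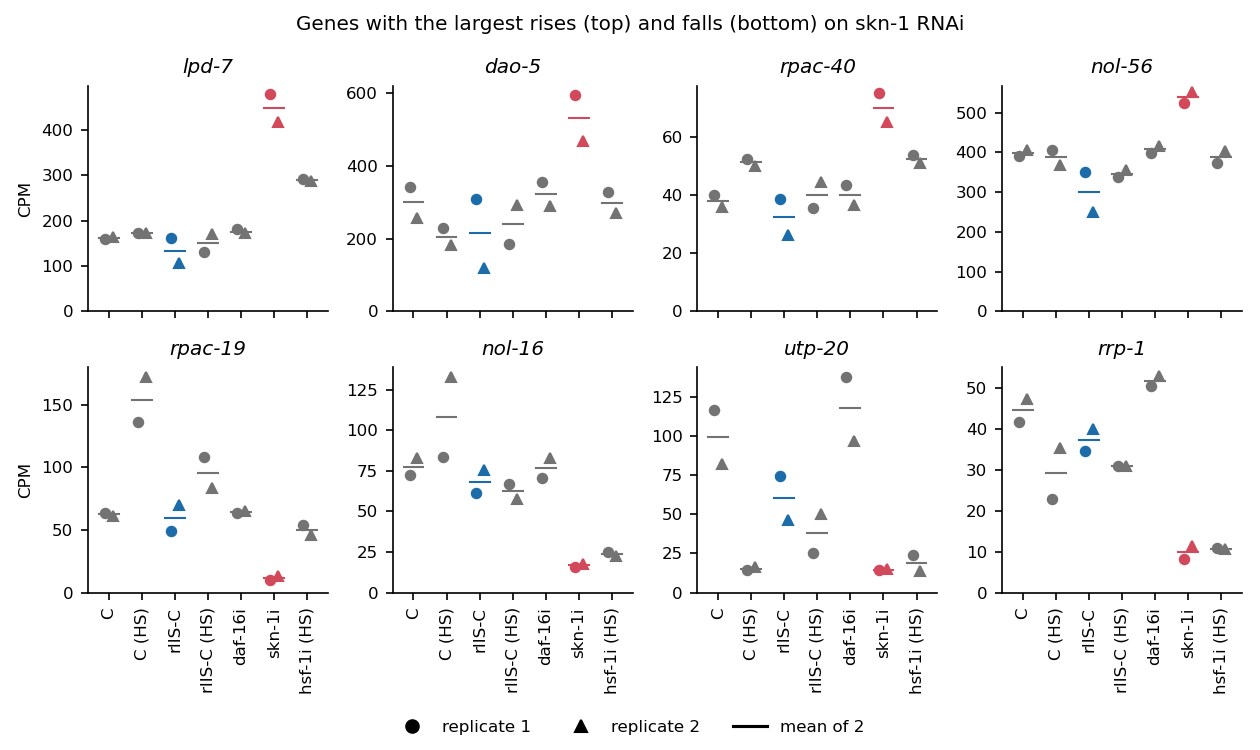
CPM by library (circles, replicate 1; triangles, replicate 2; lines, group means) in the 7 groups for the 4 genes with the largest rise on skn-1 RNAi (top row) and the 4 with the largest fall (bottom row). The skn-1i libraries are red and the rIIS-C libraries blue, and every vertical axis starts at 0. The skn-1i points of rpac-19 lie at 10.3 and 13.2 CPM, under all other groups, and those of lpd-7 at 479 and 419 CPM, above all of them.

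Of the genes followed throughout, none of 4 passed the test on skn-1 RNAi. The level of fib-1 was 349 and 378 CPM (-0.10, SE 0.16), that of rpoa-1 29.4 and 25.9 CPM (-0.40, SE 0.34) and that of rpoa-2 92.7 and 59.1 CPM (-0.14, SE 0.38). For ncl-1 it was 51.7 and 16.4 CPM (-0.87, SE 0.52), so its replicates were far apart.

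The skn-1i libraries differed from rIIS-C in much besides these genes, and the part of those differences was not tested. Of 144 cuticle genes tested 102 were called higher and 5 lower (147000 to 171000 CPM in skn-1i, 5 at 0), of 37 sperm markers 31 higher and 1 lower (5920 to 10200 CPM, 4 at 0), and of 9 body muscle markers 8 higher and 1 lower (16400 to 16700 CPM, none at 0). Of 12 germline markers 3 were called higher and 3 lower (1870 to 1960 CPM, none at 0). Of 9 intestine markers 6 were called higher and 1 lower (79900 to 94300 CPM), and of 10 neuron markers 5 higher and 3 lower (667 to 689 CPM). The split between higher and lower calls was 8 and 8 with RLE size factors too. By limma on the deposited RPKM, which differs in test, unit, filter and scaling together, the median of all genes tested was -0.92 and 1 gene was called higher and 22 lower (8.07 and 63.8% of all genes), the 1 being lpd-7. With the exon length trend removed 14 were called higher and 6 lower (32.4 and 28.1% of all genes). Without skn-1i replicate 1 the median of the 29 was -0.04, with dao-5 among the calls lost, and without rIIS-C replicate 2 it was -0.33.

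Knockdown of hsf-1 was compared after heat shock, in hsf-1i (HS) against rIIS-C (HS). Here 8 of the 29 genes fell and 1 rose, where 19.3% of all genes tested were called lower and 18.8% higher. The median fold change was -0.34, against -0.05 over all genes. The 8 that fell were 4 of large subunit assembly (nol-16, lpd-6, rrbs-1 and pro-2), 3 processing factors (rrp-1, rrp-8 and nol-10) and the polymerase subunit gene rpac-19. The exception was lpd-7, which rose.

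The level of rrp-1 was 10.8 and 10.6 CPM in hsf-1i (HS) against 30.9 and 30.9 in rIIS-C (HS), and it fell by 1.52 (SE 0.17, edgeR adjusted p = 8.71e-05). For nol-16 it was 25.1 and 22.8 CPM against 67.0 and 57.7, and it fell by 1.38 (SE 0.17, edgeR adjusted p = 0.000141). In both genes the replicates of each group were close together and the groups far apart. The level of rpac-19 was 53.6 and 46.3 CPM against 108 and 83.6, and it fell by 0.94 (SE 0.20, edgeR adjusted p = 0.00336), a call that was lost without hsf-1i (HS) replicate 2. For lpd-6, an SSF1 family factor of large subunit rRNA processing (chromosome I, 3144521 to 3147784, minus strand, 6 coding exons), it was 37.7 and 34.8 CPM against 60.2 and 65.3, and it fell by 0.78 (SE 0.15, edgeR adjusted p = 0.00222). The pescadillo gene lpd-7 had 293 and 287 CPM against 132 and 170, and rose by 0.95 (SE 0.20, edgeR adjusted p = 0.00331). Its groups did not overlap, and its level lay between those of skn-1i and of the remaining groups.

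For fib-1 the levels were 364 and 375 CPM in hsf-1i (HS) against 404 and 401 (-0.12, SE 0.16). For rpoa-1 they were 31.5 and 21.4 CPM against 25.5 and 44.2 (-0.37, SE 0.34), and for rpoa-2 53.4 and 43.9 CPM against 49.7 and 91.8 (-0.53, SE 0.38). The rpoa-1 and rpoa-2 groups overlapped, as did those of ncl-1 (40.8 and 31.7 CPM against 24.8 and 52.9, -0.07, SE 0.52).

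With a replicate block by junction class 13 genes were called lower and 2 higher (23.8 and 22.8% of all genes), and within the classes the median was -0.37 (low) and -0.24 (high). By limma on the deposited RPKM the median of all genes was -0.68 and 24 genes were called lower and 0 higher (53.2 and 5.58% of all genes), so the call of lpd-7 did not hold there. Cuticle genes (74 of 144 tested called higher and 2 lower; 175000 to 185000 CPM in hsf-1i (HS) against 71300 to 71600, with 4 and 7 at 0), sperm markers (30 of 37 called higher; 9790 to 13200 against 3010 to 5550 CPM, 4 at 0 in each) and body muscle markers (8 of 9 called higher; 14100 to 14500 against 5840 to 5850 CPM, none at 0) were higher in hsf-1i (HS) as well, and their part was not tested. Of 12 germline markers 1 was called higher and 4 lower (1470 to 1480 against 1370 to 1640 CPM).

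The skn-1 and hsf-1 comparisons have no library in common, so their calls can be set beside each other. Of the 8 genes that fell on skn-1 RNAi 7 also fell on hsf-1 RNAi after heat shock, which is 87.5% of each list: lpd-6, nol-16, pro-2, rpac-19, rrbs-1, rrp-1 and rrp-8. The 2 lists differ by utp-20 and nol-10. Over all genes tested, 2094 were lower in both, which is 49.3% of those lower on skn-1 RNAi and 78.0% of those lower on hsf-1 RNAi, so a large shared share was the rule in these libraries. Across the 29 genes the fold changes had a Spearman correlation of 0.88, against 0.70 over all 13892 genes. These are correlations across genes, which are not independent replicates, of 2 comparisons that were scaled together and whose knockdown libraries share low TMM factors.

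In C (HS) against C, the control genotype with and without heat shock, part of the machinery was lower and a smaller part higher. The C (HS) libraries stood apart in the technical measures given above, and the part of heat in these values was not tested apart from them. Of the 29 genes 11 fell and 2 rose, where 24.9% of all genes tested were called lower and 27.4% higher. The median fold change was -0.33, against 0.03 over all genes. The falls were 5 genes of large subunit assembly (pro-2, lpd-6, nst-1, rrbs-1 and nol-2), 4 of processing (utp-20, nol-10, nol-14 and rrp-1), the polymerase subunit gene rpoa-2 and ncl-1. The rises were 2 small polymerase subunit genes, rpac-19 and rpoa-12.

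In C (HS) the level of utp-20 was 14.4 and 16.1 CPM, against 117 and 82.0 in C. It fell by 2.71 (SE 0.37, edgeR adjusted p = 0.000101), the deepest change of any of the 29 genes in any comparison. The level of ncl-1 (chromosome III, 7719791 to 7736351, plus strand, 16 coding exons) was 23.2 and 11.6 CPM against 79.7 and 53.3, and it fell by 1.93 (SE 0.54, edgeR adjusted p = 0.0093), which did not pass without C replicate 1 or without C (HS) replicate 2. For rpoa-2 (chromosome I, 9281309 to 9286562, minus strand, 10 coding exons) it was 34.4 and 34.4 CPM against 137 and 109, and it fell by 1.84 (SE 0.38, edgeR adjusted p = 0.00142). The groups of these 3 genes were far apart. For pro-2, a NOC2 family factor of large subunit maturation and export (chromosome II, 10339846 to 10345111, minus strand, 11 coding exons), it was 35.5 and 34.6 CPM against 94.9 and 93.6, and it fell by 1.43 (SE 0.21, edgeR adjusted p = 0.000133).

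The polymerase subunits split. The level of rpac-19 was 136 and 172 CPM in C (HS) against 63.8 and 61.3 in C, a rise of 1.30 (SE 0.23, edgeR adjusted p = 0.000539). For rpoa-12 (chromosome V, 14422830 to 14423298, minus strand, 3 coding exons) it was 40.3 and 42.4 CPM against 15.2 and 20.3, a rise of 1.22 (SE 0.22, edgeR adjusted p = 0.000529). While rpoa-2 fell, rpoa-1, the partner large subunit, had 78.2 and 31.2 CPM against 61.3 and 51.8 (-0.05, SE 0.41), so its heat-shocked libraries lay on either side of C. The level of fib-1 was 725 and 800 CPM against 545 and 564 (0.46, SE 0.19), above C in both libraries and short of the test.

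These values followed the length of the genes. Across the 29 genes the Spearman correlation of fold change with coding length was -0.64, and over all 13986 protein-coding genes tested it was -0.60, so longer transcripts were lower in C (HS) in general. The 10 shortest of the 29 genes had a median of 0.32 and the 10 longest a median of -1.02. With the length trend removed from each library, the correlation across the 29 was 0.03. Then 4 genes were called higher and 2 lower (24.1 and 17.4% of all genes). The 4 were lpd-7, nol-6, nol-9 and rpoa-1 and the 2 were pro-2 and rrbs-1. So the calls of rpac-19, rpoa-12, utp-20, ncl-1 and rpoa-2 were lost. By limma on the deposited RPKM the median of all genes was -0.84, with 25 genes called lower and 0 higher (54.2 and 6.1% of all genes). Without C replicate 1 the median of the 29 was -0.29 and without C replicate 2 it was -0.37, beside 0.05 over all genes each time. No within-class value could be had because C (HS) fell in neither junction class. Sperm markers (24 of 37 tested called higher and 1 lower; 6130 to 6230 CPM in C (HS), 5 of 41 at 0), body muscle markers (7 of 9 higher and 2 lower; 9970 to 14900 CPM) and cuticle genes (43 of 144 higher and 3 lower; 142000 to 271000 CPM, 6 of 163 at 0) moved in C (HS) as well, and their part was not tested.

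**Figure D4:**
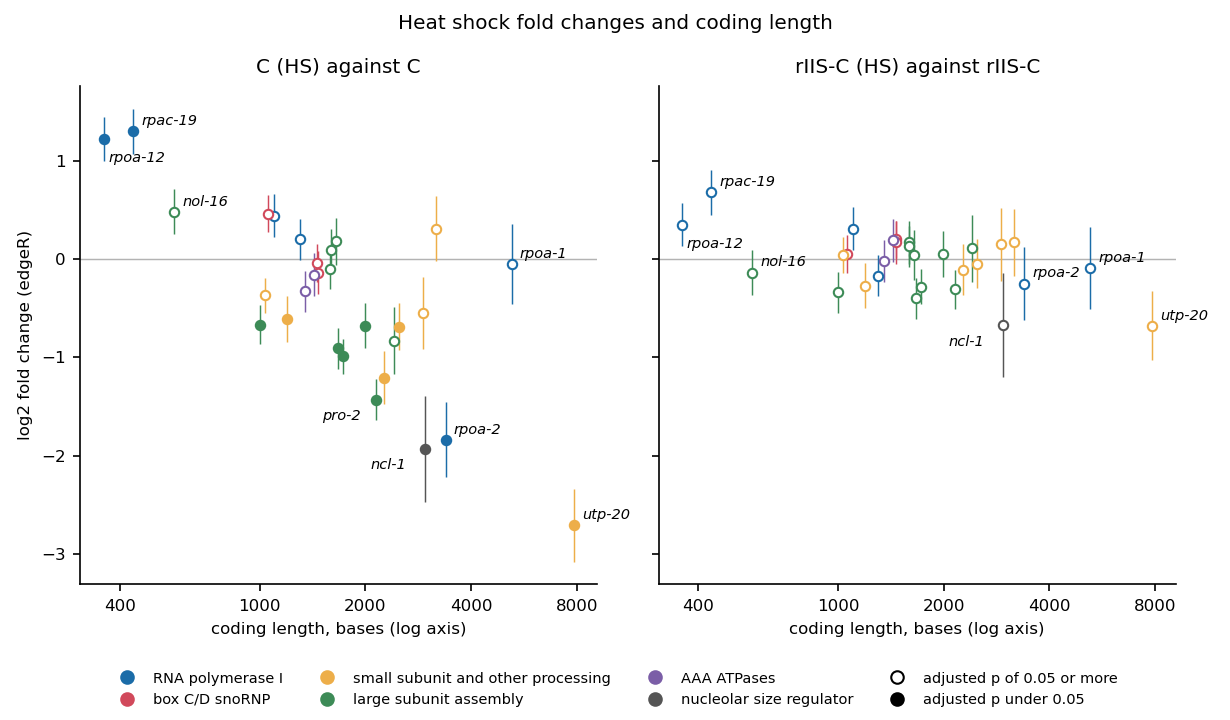
Log2 fold change (points, bars ± SE) of the 29 genes against coding length in bases on a log axis, for heat shock in C (left) and in rIIS-C (right). Filled points had an adjusted p under 0.05. At left the values run from above 1 in the shortest genes to -2.71 in utp-20, the longest, and at right they stay between -0.68 and 0.68 with no filled point.

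Heat shock of the daf-2 genotype, rIIS-C (HS) against rIIS-C, gave 0 genes higher and 0 lower in edgeR, where 1.89% of all genes tested were called higher and 0.32% lower. The median fold change was 0.04, and DESeq2 called 0. An unadjusted edgeR p under 0.05 was reached by 1 of the 29 genes, beside 2327 of all 14084 genes tested. The level of utp-20 was 25.6 and 50.1 CPM after heat shock against 74.8 and 46.5 (-0.68, SE 0.35), and that of rpac-19 was 108 and 83.6 CPM against 49 and 70.0 (0.68, SE 0.23). The rpac-19 groups did not overlap and the utp-20 groups did. For fib-1 the levels after heat shock were 404 and 401 CPM (0.05, SE 0.19), for rpoa-1 25.5 and 44.2 CPM (-0.09, SE 0.42), for rpoa-2 49.7 and 91.8 CPM (-0.25, SE 0.37) and for ncl-1 24.8 and 52.9 CPM (-0.67, SE 0.53). All 4 of these overlapped the rIIS-C libraries. In rIIS-C (HS), 24 of the 29 genes were lower in replicate 1, the library of the high junction class, than in replicate 2. Without C (HS) in the fit 1 gene, rpac-19, was called higher, where 6.56% of all genes were called higher and 3.63% lower. In a replicate block by junction class added to that fit, a setting chosen after the data were seen, rpac-19 was called higher and utp-20 and ncl-1 lower. In that fit 11.8% of all genes were called higher and 9.45% lower.

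Whether heat acted differently in the 2 genotypes was tested as an interaction, the heat response of rIIS-C minus that of C. It was positive and past the test for 3 genes and negative for 0, where 9.97% of all genes tested were called positive and 10.6% negative. So 3 of 29 positive is near the background. The 3 were utp-20 (2.02, SE 0.50, edgeR adjusted p = 0.0165), pro-2 (1.12, SE 0.29, edgeR adjusted p = 0.0183) and rpoa-2 (1.59, SE 0.52, edgeR adjusted p = 0.0478). Each had fallen in C (HS), and in each both libraries of rIIS-C (HS) lay above both of C (HS), as in 32.8% of all genes tested in that comparison. For pro-2 these were 48.8 and 58.4 CPM against 35.5 and 34.6. The interaction uses these same libraries, so their order is not separate evidence. The interaction was 1.26 (SE 0.75) for ncl-1, -0.41 (SE 0.27) for fib-1 and -0.04 (SE 0.59) for rpoa-1, none past the test. The median over the 29 was 0.33, against -0.02 over all genes.

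The interaction also ran with length, with a Spearman correlation of 0.65 across the 29 genes and 0.51 over all protein-coding genes. With the length trend removed 0 genes were called positive and 1, rpoa-1, negative (5.75 and 9.66% of all genes). Leaving out 1 library at a time, the median of the 29 ran from 0.13 without rIIS-C replicate 2 to 0.52 without rIIS-C replicate 1. The calls of utp-20, pro-2 and rpoa-2 were lost without C replicate 1 or without rIIS-C (HS) replicate 2.

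In the comparison of the heat-shocked genotypes, rIIS-C (HS) against C (HS), 1 of the 29 genes was higher and 2 were lower, where 10.4% of all genes tested were called higher and 14.5% lower. The snoRNP methyltransferase gene fib-1 had 404 and 401 CPM in rIIS-C (HS) against 725 and 800 in C (HS), and fell by 0.98 (SE 0.21, edgeR adjusted p = 0.0167). The level of rpoa-12 was 22.8 and 20.3 CPM against 40.3 and 42.4, and it fell by 1.00 (SE 0.24, edgeR adjusted p = 0.0251). The processome factor gene nol-10 (chromosome IV, 7580604 to 7583511, plus strand, 8 coding exons) had 57.2 and 79.5 CPM against 28.6 and 35.2, and rose by 1.04 (SE 0.26, edgeR adjusted p = 0.0274). In all 3 the groups were apart. The values were 0.97 (SE 0.32) for rpoa-2, 1.07 (SE 0.45) for ncl-1 and -0.74 (SE 0.47) for rpoa-1. The median was -0.07, equal to that over all genes. Leaving out 1 library at a time, the median of the 29 ran from -0.22 without rIIS-C (HS) replicate 2 to 0.02 without rIIS-C (HS) replicate 1. The calls of fib-1, rpoa-12 and nol-10 were lost without either rIIS-C (HS) library. By limma on the deposited RPKM, where the median of all genes was 0.71, 18 genes were called higher and 0 lower (42.1 and 3.56% of all genes). Fold change ran with coding length here as well (Spearman correlation 0.56 across the 29 genes and 0.56 over all protein-coding genes), and with the length trend removed the calls of nol-10 and rpoa-12 were lost. Of 138 cuticle genes tested 32 were called lower and 1 higher, of 9 body muscle markers 5 lower and 1 higher, and of 36 sperm markers tested 4 lower (71300 to 71600, 5840 to 5850 and 3010 to 5550 CPM in rIIS-C (HS) against 142000 to 271000, 9970 to 14900 and 6130 to 6230 CPM in C (HS)), and their part was not tested.

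**Figure D5:**
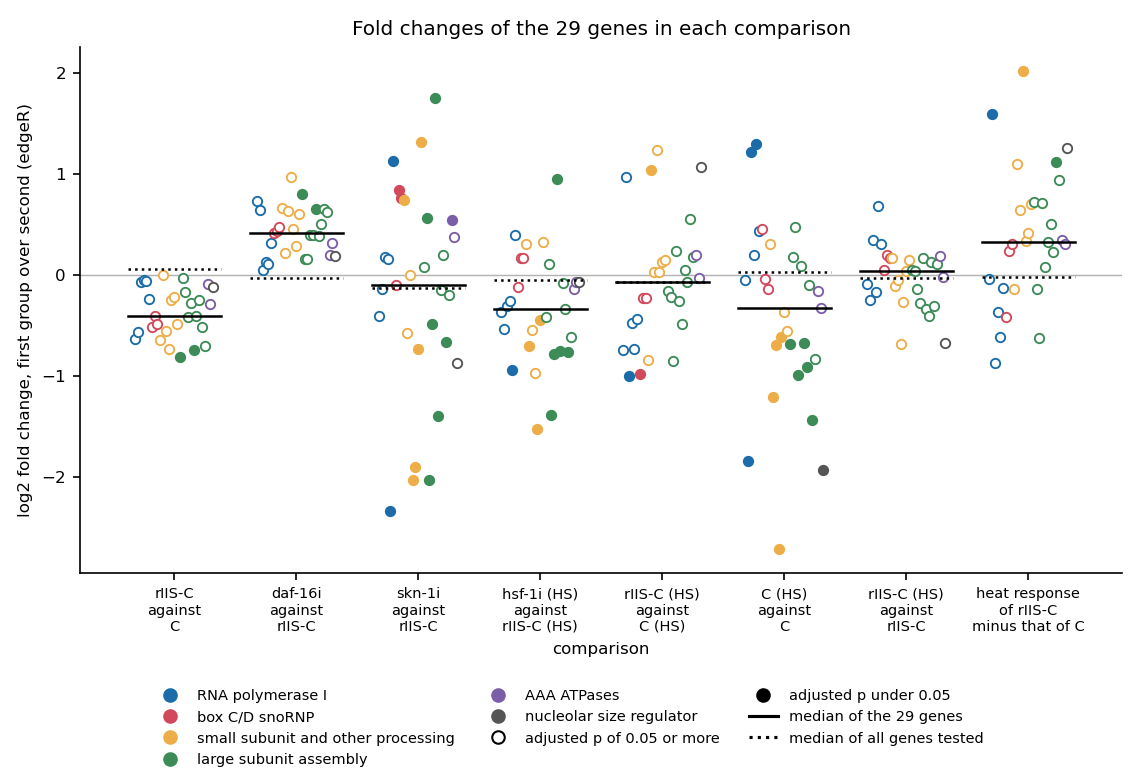
Log2 fold change (edgeR) of each of the 29 genes in the 8 comparisons. Points are genes coloured by role, filled where the adjusted p was under 0.05, with solid lines for the median of the 29 and dotted lines for the median of all genes tested. The rIIS-C points lie at or below 0 and the daf-16i points above it, with few filled, and the skn-1i points spread from -2.33 to 1.75.

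The ribosomal proteins are what the factors described here assemble into ribosomes. Of 78 cytosolic ribosomal protein genes 75 rose in skn-1i (median 2.04), 74 rose in hsf-1i (HS) (median 1.65) and 76 rose in C (HS) against C (median 2.13), with 0 called lower in each. Their summed level was 57900 to 97200 CPM in the libraries of C, rIIS-C, rIIS-C (HS) and daf-16i and 221000 to 330000 CPM in those of C (HS), skn-1i and hsf-1i (HS). By limma on the deposited RPKM, with no TMM scaling, 71, 65 and 65 of them were still called higher in these 3 comparisons and 1, 0 and 0 lower. In rIIS-C against C and in daf-16i against rIIS-C edgeR and DESeq2 called 0 of the 78, 0 had an unadjusted p under 0.05, and the medians were -0.13 and -0.06 beside -0.40 and 0.42 for the 29 genes.

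Of 31 other biogenesis factors in the tables (exosome subunits, RIO kinases, helicases and others), 8 rose and 10 fell in skn-1i (median 0.06), 3 rose and 11 fell in hsf-1i (HS) (median -0.24), and 8 rose and 12 fell in C (HS) (median -0.42). In rIIS-C against C edgeR called 0 (6 at an unadjusted p under 0.05) and DESeq2 2, with 23 of 31 negative and a median of -0.21, and in daf-16i 1 rose, with 26 of 31 positive and a median of 0.26. These values had the same signs as those of the 29 genes in the rIIS-C, daf-16i, hsf-1i (HS) and C (HS) comparisons, and no test set the lists against each other. Of 12 genes listed by name for RNA polymerase II (ama-1 and rpb genes) 6 rose in skn-1i and 9 rose and 1 fell in C (HS). By limma on the deposited RPKM 6 of them were called lower and 0 higher in skn-1i. Some rpb genes encode subunits shared with polymerases I and III, so the lists do not separate the polymerases. Of the 6 polymerase I genes among the 29, 1 rose and 1 fell in skn-1i and 2 rose and 1 fell in C (HS). Of 4 RNA polymerase III subunits 1 rose and 1 fell in skn-1i, and 1 rose and 2 fell in C (HS). Of 10 regulators of ribosome synthesis, among them TOR pathway genes and ncl-1 itself, 2 rose and 3 fell in skn-1i, and 0 were called by edgeR in rIIS-C against C or in daf-16i (2 at an unadjusted p under 0.05 in each; by DESeq2 0 and 1).

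Reads in introns, which can come from unspliced transcripts, were few. They made up 0.118 to 0.557% of the reads of the 29 genes in each library, below the 0.685 to 1.68% over all protein-coding genes.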

How the data were processed

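Whole-worm poly(A) RNA libraries were sequenced by the authors, who mapped the reads to the worm genome (WBcel235) in CLC Genomics Workbench, with CASAVA 1.8.2 among the tools in the submitters' processing notes. For each library the authors deposited a gene table with counts (whole reads per gene on exons, exon junctions, introns and the gene) and RPKM values (reads scaled to exon length and to the mapped reads of the library). How strand was treated in counting is not given in the sources used here. Here 6 columns without a name beside the tables were not used.

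Total exon reads were tested in edgeR 4.0.16 (R 4.3.3) with the quasi-likelihood test, filterByExpr and TMM scaling, with Benjamini-Hochberg adjustment over 13892 genes (12 libraries without C (HS), which served the 3 knockdown comparisons and rIIS-C against C), 13149 genes (6 heat-shocked libraries) or 14084 genes (all 14). Alternatives were DESeq2 1.42.0, RLE size factors, no filter on low counts, limma 3.58.1 on log2(RPKM + 1), removal of a trend on exon length, blocks, other sets of libraries and each library left out. The edgeR script was tested on simulated data. By label number, correlations between groups of same-numbered deviations ran from -0.334 to 0.291, above 0.1 in 9 of 21 pairs. Every negative value involved rIIS-C (HS), the only group with its replicate 1 in the high junction class. By junction class the correlations were 0.092 to 0.334, above 0.1 in 14 of 15 pairs. The labels call the 2 libraries of a group replicates. Each edgeR p-value sets a difference against a spread between replicates that was estimated over all groups of its fit. The common dispersion, edgeR's measure of that spread, was 0.0275 with 12 libraries, 0.0813 with the 6 heat-shocked and 0.0508 with all 14. No 2 libraries of a group were alike within sampling noise. The chi-square per gene between the exon reads of a pair was 181 in C (HS) and 6.13 to 35.9 in the other groups. Coordinates are coding spans in WBcel235 as the tables give them, and coding lengths hold no UTRs. The files name 2 genes otherwise than the Ensembl annotation (nol-2 is nsun-1 there, and rrbs-1 is rrsr-1).

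The genes and lists were chosen with earlier results of these data known. Genes named in full were the 4 with the largest rise and the 4 with the largest fall among those called with at least 10 CPM in a group, exceptions to the main direction, and ncl-1, fib-1, rpoa-1 and rpoa-2 in every comparison. Promoter motifs were not analysed here.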

Additional observations from a re-analysis of the deposited data

Results flagged for a closer look

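The interaction in edgeR passed the test for 3 of the 29 genes: utp-20 (2.02, SE 0.50), rpoa-2 (1.59, SE 0.52) and pro-2 (1.12, SE 0.29). Over all genes tested 9.97% were called positive and 10.6% negative, so 3 of 29 is near the background. With RLE size factors the call of rpoa-2 was lost, and with only the groups compared all 3 calls were lost. After heat shock utp-20 stood at 14.4 and 16.1 CPM in C (HS) and at 25.6 and 50.1 CPM in rIIS-C (HS), and rpoa-2 at 34.4 and 34.4 CPM against 49.7 and 91.8. With the exon length trend removed the interactions were 0.34 for utp-20, 0.64 for rpoa-2 and 0.49 for pro-2, none past the test.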

How the results depend on the processing

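With 2 libraries a group, single libraries moved the median log2 fold change of the 29 genes. Leaving out 1 library at a time, the number called (higher and lower together) ran from 0 to 13 in rIIS-C against C (2 with all libraries), from 0 to 14 in daf-16i against rIIS-C (2), from 12 to 16 in skn-1i against rIIS-C (16), from 6 to 10 in hsf-1i (HS) against rIIS-C (HS) (9), from 0 to 9 in rIIS-C (HS) against C (HS) (3), from 8 to 15 in C (HS) against C (13) and from 0 to 8 in the interaction (3).

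Other settings moved the counts of the 29 genes called (higher and lower together) as follows. Brackets give the percent of all genes tested that were called higher and lower. With all 14 libraries in 1 fit they were 0 in rIIS-C against C, 0 in daf-16i and 8 in rIIS-C (HS) against C (HS), and with only the groups compared 0 in each of these and 0 in the interaction. Without the filter on low counts they were 8 in rIIS-C against C (3.02 and 5.69), 5 in daf-16i (3.04 and 2.3) and 7 in rIIS-C (HS) against C (HS) (8.84 and 12.2). With the length trend removed they were 11 in rIIS-C against C, 10 in daf-16i, 6 in C (HS) against C and 1 in the interaction. By limma on RPKM they were 1 in rIIS-C against C (4.71 and 4.49), 0 in daf-16i (2.25 and 3.05) and 24 in hsf-1i (HS) (5.58 and 53.2). They were 18 in rIIS-C (HS) against C (HS) (42.1 and 3.56), 25 in C (HS) against C (6.1 and 54.2) and 19 in the interaction (28.6 and 2.6). DESeq2 called 6 in rIIS-C (HS) against C (HS) (8.31 and 10.6).

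A replicate block by junction class gave 11 in rIIS-C against C (8.47 and 10.1), 11 in daf-16i (6.08 and 4.89) and 15 in hsf-1i (HS) (22.8 and 23.8). In the heat response of rIIS-C without C (HS) it gave 3 (11.8 and 9.45), beside 1 without the block (6.56 and 3.63). Brackets are as above. A replicate block by label number gave 1 in daf-16i (3.01 and 2.45) and 2 in rIIS-C against C (3.84 and 6.05). The labels do not say whether their numbers mark a shared litter or day.

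The sign turned in 39 values of named genes, of which 5 were called in either fit: nol-56 in skn-1i (-0.15 by limma on RPKM), rpoa-1 and rpoa-2 in skn-1i (0.47 and 0.58 with the length trend removed), fib-1 in C (HS) against C (-0.61 by limma on RPKM) and rpoa-1 there (1.68 with the length trend removed). The others were of ncl-1, fib-1, rpoa-1 and rpoa-2 where these were not called. With 1 library left out, ncl-1 ran from -0.67 to 0.30 in rIIS-C against C, from -0.23 to 0.75 in daf-16i and from -0.53 to 0.54 in hsf-1i (HS), and fib-1 from -0.30 to 0.13 in skn-1i and from -0.15 to 0.28 in rIIS-C (HS) against rIIS-C. For rpoa-1 the range was -0.87 to 0.17 in skn-1i, -0.72 to 0.05 in hsf-1i (HS), -1.19 to 0.13 in rIIS-C (HS) against C (HS), -0.86 to 0.47 in C (HS) against C, -0.54 to 0.50 in rIIS-C (HS) against rIIS-C and -0.55 to 0.78 in the interaction. For rpoa-2 it was -0.62 to 0.51 in skn-1i and -0.75 to 0.42 in rIIS-C (HS) against rIIS-C. With the length trend removed, ncl-1 (0.35) and rpoa-1 (0.13) turned in hsf-1i (HS), and rpoa-1 (0.39) and rpoa-2 (0.13) in rIIS-C (HS) against rIIS-C. By limma on RPKM rpoa-1 turned in rIIS-C (HS) against C (HS) (0.24) and the interaction (0.77), and fib-1 in rIIS-C (HS) against rIIS-C (-0.25) and the interaction (0.36). For rpoa-1, only the groups compared gave 0.04 in C (HS) against C, and the label number block 0.02 in rIIS-C (HS) against rIIS-C and 0.14 in the interaction. Of the remaining values of named genes under alternatives, 581 kept both their sign and their side of the threshold, 69 lost the call and 42 gained one. The causes of these moves were not tested.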
